A study of Drosophila melanogaster with 3 samples.

Results

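In single-cell RNA-seq of the larval peripheral chemosensory organs of Drosophila melanogaster, barcodes that had captured few genes were set against barcodes of the same library that had captured many. A barcode is the 12-base synthetic sequence on a bead, which marks the transcripts caught with that bead. Barcodes with at least 200 and fewer than 500 genes counted are called shallow, and barcodes with at least 1000 genes counted are called deep. The 2 classes held 441 of the 1369 barcodes, 378 shallow and 63 deep. Raw counts were summed over each class in each of the 3 libraries. Replicate 1 had 24 shallow and 24 deep barcodes, replicate 2 had 160 and 29, and replicate 3 had 194 and 10. The classes were chosen by the number of genes counted, so the difference in gene number and depth between them is a description and not a finding.

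All 3 libraries belong to 1 group, third-instar larvae with no treatment named. Their titles end differently, in Sens40M for replicate 1, SensMix for replicate 2 and SensSingle for replicate 3, and the labels do not explain these words. With 1 library of each, a difference between replicates cannot be told apart from whatever these words name. Labelled, fluorescent sense organs were selected manually, dissociated with enzymes and run through DisCo, a droplet method that pairs single cells with barcoded beads under observation. The labels name neither the driver of the fluorescent label nor the larvae pooled per library. They also do not say whether the replicates came from separate animals, so every p-value rests only on spread between these libraries, which may be technical. In the edgeR fit no gene had a spread of its own, because each took a shared fitted value that may vary with mean level. An edgeR p-value therefore does not measure how well the libraries agree on that gene.

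The external taste and smell organs of the larva are built of sensilla. In each sensillum, the dendrites of sensory neurons lie in a lymph-filled space made by support cells, under a cuticular pore or tip. Support cells secrete odorant-binding proteins and related small proteins into that lymph, while the neurons carry the receptors and ion channels. In droplet methods, a bead with few transcripts can have caught a small or damaged cell, part of a cell or transcripts floating in the suspension, and these kinds of barcode cannot be told apart in these counts.

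Summed depth differed strongly between the classes. The shallow sums held 21956, 75209 and 100240 counts in replicates 1, 2 and 3, and the deep sums held 438341, 538994 and 195269. The median shallow barcode had 733.5, 431 and 461.5 counts, and the median deep barcode had 10470, 6787 and 7081. The shallow sums made up 4.32%, 10.9% and 27.1% of all counts of their library, against 86.3%, 78.2% and 52.9% for the deep sums. The deep sums rest on few barcodes, because the deepest barcode alone supplied 26.1%, 29.2% and 60.7% of them. In the shallow sums the deepest barcode supplied 21.1%, 1.37% and 1.26%. No barcode sequence of either class occurred in more than 1 library, and over all barcodes 2 sequences did. Doublets were not called and were kept.

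At the edges of the classes, the barcodes just below the shallow class fell short of its limit of 200 genes by 1 to 3 genes, and those just inside it had 203, 200 and 200. At the upper edge, the last shallow barcodes had 484, 496 and 492 genes and the next barcodes had 534, 513 and 504. The last barcodes below the deep class had 995 genes in each library, and the first inside it had 1005, 1099 and 1020. When every barcode was thinned to 250 counts, the median number of genes was 156, 188 and 178 in shallow barcodes, and 173, 195 and 190 in deep barcodes. The classes thus lay far closer in genes per count than in genes per barcode. These are descriptions with no test.

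**Figure D1:**
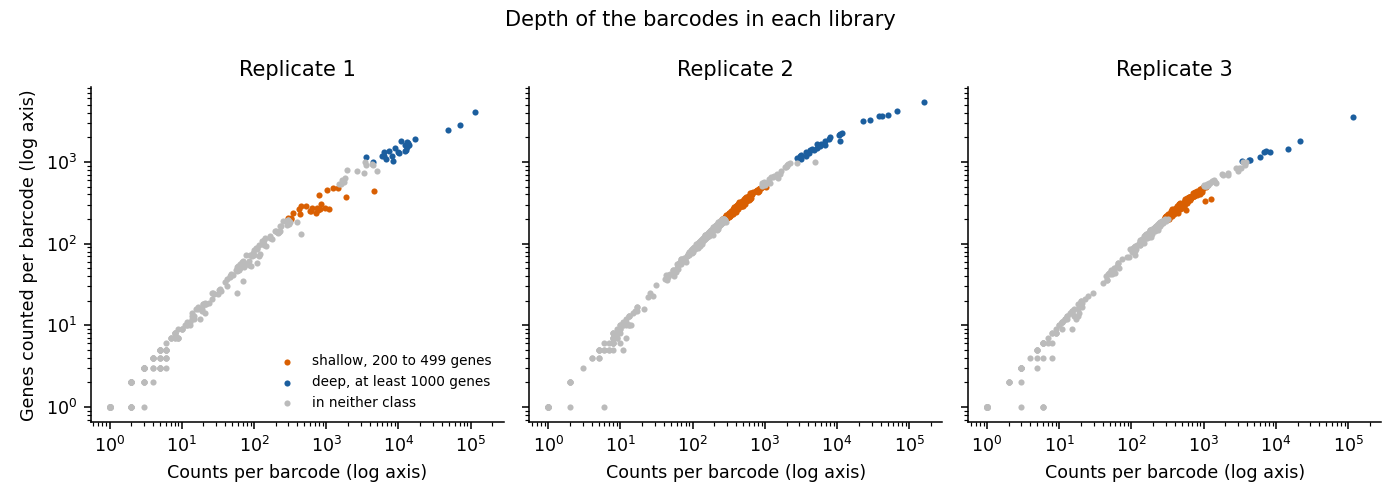
Genes counted against total counts for every barcode with counts, 1 panel per library, both axes logarithmic; orange points are shallow barcodes, blue points deep barcodes and grey points barcodes in neither class. The points form 1 continuous curve in each library, and a single deep barcode of replicate 3, with 118614 counts, stands apart from the other 9.

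The barcode sequences themselves are shown because many deep barcodes resembled a deeper barcode of their own library. An edit is 1 base changed, inserted or deleted. Among deep barcodes other than the 3 deepest, 19 of 21, 7 of 26 and 6 of 7 lay within 4 edits of a deeper barcode of the same library in replicates 1, 2 and 3. Against as many of the deepest barcodes of either other library, these counts were between 0 and 3. The limit of 4 edits matters most in replicate 1. Within 3 edits the own-library counts were 0 of 21, 5 of 26 and 6 of 7. The deepest barcodes of replicates 1 and 3 follow, each with 3 deep barcodes close to it, 5′ to 3′, with bases that differ from the deepest barcode in capitals.
Replicate 1, deepest barcode: aaatagtcacga
Replicate 1, near barcode with 14125 counts: CaatagtcaGTG
Replicate 1, near barcode with 13424 counts: CTTAagtcacga
Replicate 1, near barcode with 12346 counts: aaataTCcGAga
Replicate 3, deepest barcode: taccaaggtaga
Replicate 3, near barcode with 14713 counts: AacAaagCtaga
Replicate 3, near barcode with 8275 counts: taccaagTAagC
Replicate 3, near barcode with 6000 counts: tacGaaCAtaga
The shown barcodes of replicate 1 differ from their deepest barcode at 4 positions, and those of replicate 3 at 3 positions.

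Shallow barcodes were less uniformly close to deep ones. In replicate 1, 13 of 24 shallow barcodes (54.2%, exact 95% interval 32.8 to 74.4%) lay within 4 edits of a deep barcode of their own library, against 4 and 0 of 24 when the deep barcodes of replicates 2 and 3 were used. In replicate 2 the share was 16.2% (10.9 to 22.9%) for its own deep barcodes, and 15.6% and 8.75% for those of replicates 1 and 3. In replicate 3 it was 7.73% (4.39 to 12.4%) for its own, and 10.8% and 17.5% for those of replicates 1 and 2. The libraries differ in their number of deep barcodes. With the 10 deepest of each library in their place, the own-library share was 25%, 6.25% and 7.73% in replicates 1, 2 and 3, and the shares against other libraries were 4.17% and 0%, 10% and 8.75%, and 4.64% and 5.67%. The lower bound of the own-library interval exceeded both other shares in replicate 1 and not in replicates 2 and 3. These intervals cover counting error only. No 2 of these barcodes were merged, and the part of barcodes within 4 edits of each other in the gene differences was examined by leaving them out.

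Each shallow sum resembled the deep sum of its own library more than any sum of another library. Over genes that reached 10 counts in 2 sums together, the Pearson correlation of log2(CPM + 10) between the shallow and the deep sum of a library was 0.674, 0.867 and 0.691 in replicates 1, 2 and 3. CPM is the count scaled to a total of 1000000 per sum. Between shallow and deep sums of different libraries it averaged 0.270, between shallow sums of different libraries 0.228, and between deep sums of different libraries 0.255. These are correlations across genes, which are not independent replicates, and sums of a library share its reagents and sequencing run. Replicate 1 stood apart in its ribosomal protein share, at 29.7% of its shallow and 38.3% of its deep counts. The other libraries had 14.2 to 20.6% of shallow and 13.8 to 21.1% of deep counts. Correlations between shallow sums were 0.2525 for replicates 1 and 2, 0.191 for 1 and 3 and 0.240 for 2 and 3. Between deep sums they were 0.277, 0.0602 and 0.428 in the same order.

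**Figure D2:**
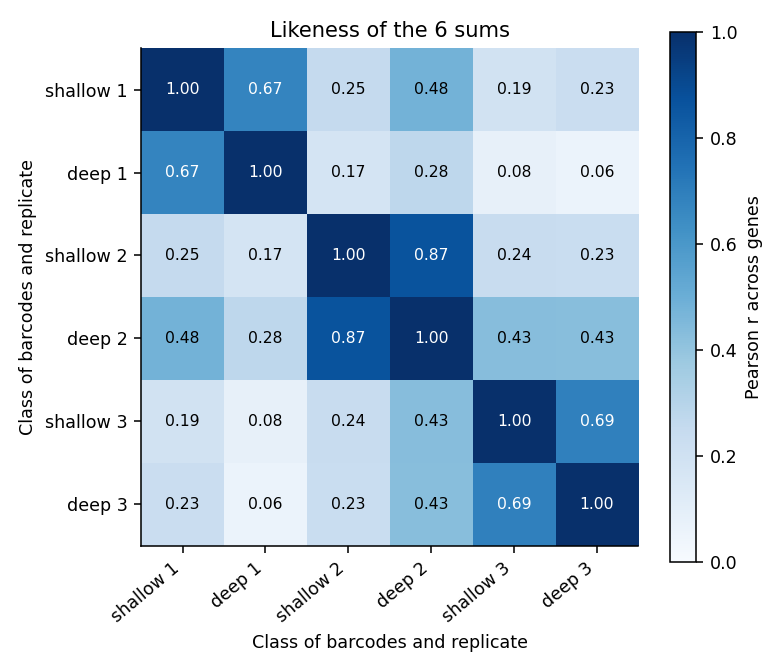
Pearson correlation across genes of log2(CPM + 10) between the 6 sums, shallow and deep of replicates 1, 2 and 3; darker blue is a higher correlation. The 3 pairs from the same library reach 0.674 to 0.867, and the pairs from different libraries lie between 0.0602 and 0.477.

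Gene by gene, 4 genes were higher in shallow barcodes by edgeR's quasi-likelihood test with the library as a block and a Benjamini-Hochberg adjusted p under 0.05, and no gene was lower. They were fz2, a Wnt receptor, the ribosomal RNA pseudogene 28SrRNA-Psi:CR40596, and the long non-coding RNAs CR45824 and CR45277. They are 0.152% of the 2638 genes tested, and 0% were called lower. At an unadjusted p under 0.05, 27 genes were higher and 37 lower. DESeq2, run on the same sums, called 10 genes higher and 0 lower, with 43 and 3 at an unadjusted p under 0.05. The count depended on the library. It was 24 higher and 2 lower without replicate 1, 1 higher and 0 lower without replicate 2, and 0 in both directions without replicate 3. With deep barcodes defined from 500 genes upward in place of 1000, no gene was called.

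The frizzled-family receptor gene fz2 (FBgn0016797, chromosome arm 3L) had the smallest adjusted p, from replicates 2 and 3 alone. Its level was 0, 2234 and 8500 CPM in the shallow sums of replicates 1, 2 and 3, against 9.12, 55.7 and 164 CPM in the deep sums. In replicate 1 there were 0 fz2 counts in the shallow sum, a depth that would leave up to 137 CPM unseen, and 4 in the deep sum. The shallow level was 40.1-fold (exact 95% counting interval 27.1 to 61.3) and 51.9-fold (36.5 to 76.3) the deep level in replicates 2 and 3. The fitted log2 fold change over all 3 libraries was 4.90 ± 0.72 (SE), with an edgeR adjusted p of 2.66e-08. Over the 17 alternatives in which fz2 was tested, the log2 fold change ranged between 2.41 and 5.57 and the adjusted p between 3.88e-42 and 1, and fz2 was called in 12. It was not called without replicate 2 or without replicate 3, where the adjusted p was 0.999 and 1. The long non-coding genes lncRNA:CR45941 and lncRNA:CR43893 overlap fz2 in the RefSeq annotation, and reads of overlapping genes could not be separated here.

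Counted per barcode, shallow barcodes averaged 1.05 and 4.39 fz2 counts in replicates 2 and 3, and deep barcodes averaged 1.03 and 3.2, although the median deep barcode had 15.7 and 15.3 times the counts of the median shallow one. Barcodes between these classes, with 500 to under 1000 genes, averaged 2.88 and 16.9 fz2 counts, so the number per barcode was not constant over depth. It was counted in 68 of 160 and 144 of 194 shallow barcodes, against 14 of 29 and 6 of 10 deep barcodes. No single barcode carried the shallow level, since the most fz2 counts in 1 shallow barcode were 26 of 168 in replicate 2 and 51 of 852 in replicate 3. In replicate 3, 16 of the 32 deep fz2 counts came from the deepest barcode, which had 135 CPM.

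With barcodes ordered by gene number, fz2 in replicates 2 and 3 stood higher in each bin under 1000 genes than in deep barcodes. In replicate 2 its level was 1499 CPM in barcodes with under 200 genes, 2234 CPM in shallow barcodes, 1806 CPM in those with 500 to under 1000 genes and 55.7 CPM in deep barcodes. In replicate 3 the same bins had 6636, 8500, 9100 and 164 CPM. In replicate 1 they had 95, 0, 53.8 and 9.12 CPM, which rest on 0 to 4 counts each. Single barcodes weigh on the bin of 500 to under 1000 genes, where 1 barcode held 50 of 72 fz2 counts in replicate 2 and 144 of 456 in replicate 3. Without that barcode, left out after the values were seen, the bin had 579 CPM in replicate 2 and 6693 CPM in replicate 3, below the shallow level in both. Shallow barcodes had 1909 and 8031 CPM without their own top barcode. The order of the bins under 1000 genes thus depends on 1 barcode, while each stayed above the deep level.

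The pseudogene copy of the large ribosomal RNA, 28SrRNA-Psi:CR40596 (FBgn0085753), was the 1 called gene that was higher in shallow barcodes in all 3 libraries. It had 228, 213 and 798 CPM in the shallow sums, from 5, 16 and 80 counts, against 0, 1.86 and 10.2 CPM in the deep sums, from 0, 1 and 2 counts. The lowest shallow value exceeded the highest deep value. Replicate 1 rests on 5 counts against 0, and no fold is given for it. The ratio was 115 (exact counting interval 17.8 to 4809) in replicate 2 and 77.9 (20.9 to 655) in replicate 3. The log2 fold change was 6.54 ± 1.09 (SE) and the edgeR adjusted p 2.49e-06. It was called in 13 of 17 alternatives, with adjusted p between 5.34e-09 and 1.00, and stayed called without replicate 1 (adjusted p 1.94e-06) and without replicate 2 (0.0460) but not without replicate 3 (0.382). The annotation places copies of this name on X and Y, and nearly identical ribosomal RNA copies elsewhere in the genome make its counts uncertain.

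The long non-coding RNA CR45824 (FBgn0267474, 3L) followed fz2 across libraries. It had 0, 426 and 1127 CPM in the shallow sums, from 0, 32 and 113 counts, against 0, 7.42 and 20.5 CPM in the deep sums, from 0, 4 and 4 counts. The shallow level was 57.3-fold (20.3 to 223) and 55.03-fold (20.9 to 206) the deep level in replicates 2 and 3. The log2 fold change was 5.68 ± 1.03 (SE), edgeR adjusted p 3.25e-05, and it was called in 11 of 14 alternatives, with adjusted p between 1.65e-10 and 1.00. It lies within the span of Ncc69, a cation-chloride cotransporter gene whose own log2 fold change was -0.24 ± 1.3 (SE, edgeR adjusted p = 1).

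The long non-coding RNA CR45277 (FBgn0266815) had 0, 79.8 and 209 CPM in the shallow sums, from 0, 6 and 21 counts. It had 0 counts in all 3 deep sums. Against a floor of 3 counts per deep sum, and taking the few shallow counts as they stand, it was at least 14.3-fold higher in replicate 2 and at least 13.6-fold higher in replicate 3. Its edgeR adjusted p was 0.0120, and it was called in 5 of the 10 alternatives that tested it, with adjusted p between 0.00169 and 0.838. The values of fz2, CR45824 and CR45277 do not meet the condition of moving the same way in all 3 libraries, and these 3 genes were named after their values were seen.

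**Figure D3:**
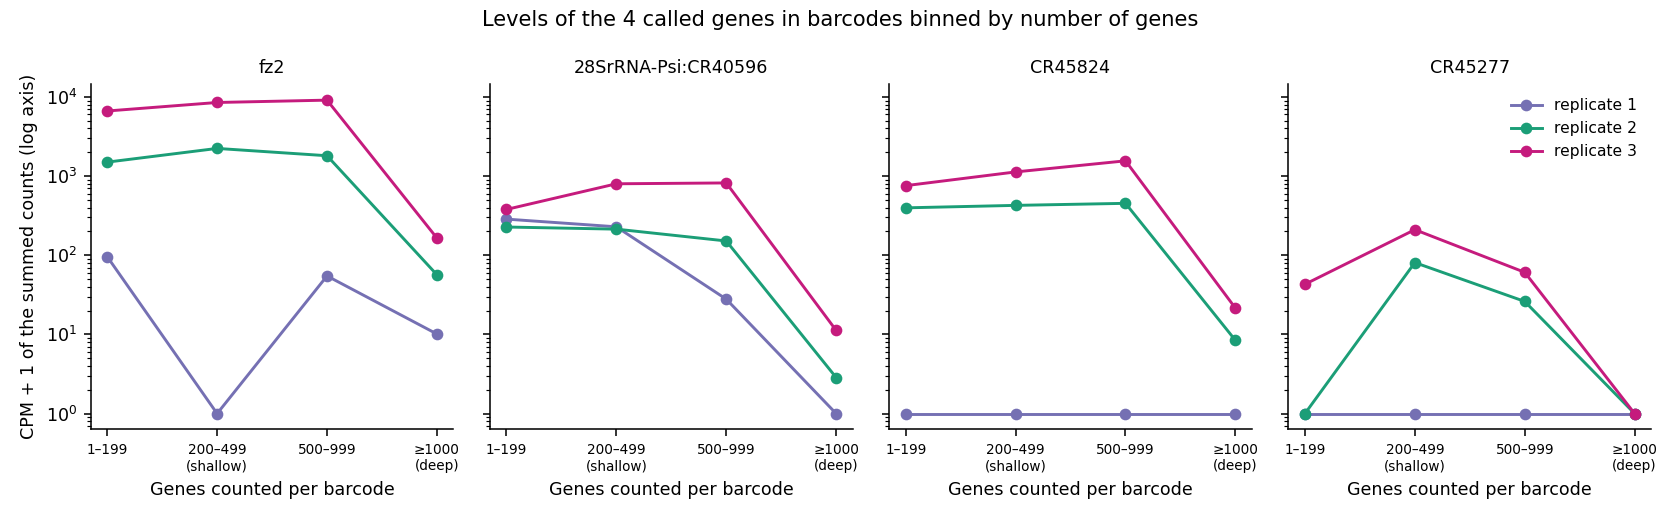
Levels of the 4 called genes as CPM + 1 of the summed counts on a log axis, in barcodes binned by the number of genes counted, 1 line per library; a value of 1 means no counts. In replicates 2 and 3, fz2, 28SrRNA-Psi:CR40596 and CR45824 stand higher in each of the 3 bins under 1000 genes than in the deep bin, and 1 barcode held 50 of 72 fz2 and 12 of 18 CR45824 counts of the bin of 500 to under 1000 genes in replicate 2, and 39 of 78 CR45824 counts in replicate 3.

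With barcodes within 4 edits of another removed, fz2, 28SrRNA-Psi:CR40596 and CR45824 were called again, and CR45277 in 1 of 2 settings. Without shallow barcodes within 4 edits of a deep barcode, 5 genes were higher and the log2 fold changes were 5.09 for fz2, 6.87 for 28SrRNA-Psi:CR40596, 5.73 for CR45824 and 7.17 for CR45277. Without deep barcodes within 4 edits of a deeper one, an alternative added after the data were seen, 6 genes were higher, with 5.06 for fz2, 7.37 for 28SrRNA-Psi:CR40596 and 6.53 for CR45824. CR45277 did not pass the filter on low counts there and was not tested. Without the 3 deepest barcodes of each library, fz2, 28SrRNA-Psi:CR40596 and CR45824 were called, at 5.04, 6.54 and 5.84, and CR45277 was again not tested.

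A wider set of genes was higher in shallow barcodes of replicates 2 and 3, the 2 libraries with the most shallow barcodes. Without replicate 1, 24 genes were higher (1.12% of 2135 tested) and 2 lower (0.0937%), and these genes were chosen after their values were seen. The 24 include all 4 genes called over 3 libraries, and 7 of the 24 were higher in the shallow sum of replicate 1. Of the 2638 genes tested with all 3 libraries, a different set, 32.2% were higher there by CPM, with no test. Without replicate 1, 9 of the 24 had log2 fold changes above 3, and the other 15 lay between 1.22 and 2.99.

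Beside the 4 called genes, the 9 with the larger changes were CG43795, CG9317, h-cup, P58IPK and CG1309. CG9317 (now CarT, a carcinine transporter) had 0, 106 and 539 CPM in shallow sums of replicates 1, 2 and 3, against 0, 0 and 41.0 CPM in deep sums, and its log2 fold change without replicate 1 was 4.64 ± 1.19 (SE, edgeR adjusted p = 0.00929). P58IPK, a co-chaperone of the endoplasmic reticulum, had 0, 306 and 1337 CPM in shallow sums, against 75.3, 42.7 and 30.7 CPM in deep sums. Its log2 fold change without replicate 1 was 3.998 (edgeR adjusted p = 2.24e-06), and replicate 1 went the other way. CG1309 had 0, 266 and 818 CPM in shallow sums and 0, 50.1 and 25.6 CPM in deep sums. CG43795 had 0, 359 and 379 CPM in shallow sums, against 2.28, 1.86 and 30.7 CPM in deep sums, and it overlaps several genes, Or59b and Or59c among them. With all 3 libraries and TMM scaling none of these genes passed, the edgeR adjusted p being 0.101 for CG43795, 0.136 for CG9317, 0.218 for CG1309, 0.472 for h-cup and 0.572 for P58IPK. With relative log expression factors in place of TMM each passed over all 3 libraries. The edgeR adjusted p was then 0.00506 for CG43795, 0.0136 for CG9317, 0.0168 for CG1309 and P58IPK, and 0.0445 for h-cup. Of the 19 settings run, CG43795 was called in 7, CG9317 in 5, CG1309 and P58IPK in 4 and h-cup in 2.

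The 15 genes with smaller changes included 6 odorant-binding protein genes, which encode small carriers of the sensillum lymph. All 24 of their members in the files together held 10.7%, 3.66% and 4.90% of the shallow counts in replicates 1, 2 and 3, against 5.26%, 1.64% and 1.65% of the deep counts. Shallow sums were above deep sums in every library, by 3.56 ± 1.72 percentage points (SD, n = 3), or 2.03-, 2.23- and 2.97-fold. With classes set by total counts in place of genes, the difference was 1.73 ± 1.81 percentage points (SD, n = 3). With 3 libraries no exact two-sided permutation test can go below 0.25, so no test was made. Of the 24 members, 9 had enough counts to be tested, and 0 were called over all 3 libraries with TMM scaling, against 0.152% of all genes. Their median log2 fold change was 0.92, beside -0.32 over all genes tested. Passing the filter needed counts in these sums, so the tested members do not stand for the list.

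Without replicate 1, 6 of the 8 members tested were higher, beside 1.12% of all genes. Obp56h had 0, 10780 and 10460 CPM in shallow sums, against 2.28, 4551 and 3390 CPM in deep sums, a log2 fold change without replicate 1 of 1.42 (edgeR adjusted p = 1.11e-04). Obp28a had 105700, 4015 and 22180 CPM in shallow sums and 51560, 1829 and 7323 CPM in deep sums, so it was 2.05-, 2.20- and 3.03-fold higher, and its log2 fold change was 0.92 ± 0.66 (SE, edgeR adjusted p = 1) with all 3 and 1.36 (adjusted p = 2.59e-04) without replicate 1. Obp49a had 228, 8430 and 7412 CPM in shallow sums, against 18.2, 3818 and 2689 CPM in deep sums, higher in 3 of 3 libraries, but replicate 1 rests on 5 and 8 counts. Its adjusted p was 1 with all 3 libraries and 0.00119 without replicate 1. The folds above are of CPM without TMM factors, which were 1.364 for the shallow and 0.6609 for the deep sum of replicate 1. In replicates 2 and 3 they were 1.053 and 0.9798 for shallow and 1.129 and 0.9527 for deep sums. The fits used TMM scaling. With relative log expression factors in its place, Obp28a, Obp49a and Obp56h were called over all 3 libraries (edgeR adjusted p 8.19e-04, 0.0016 and 0.0150). There 0.569% of all genes were called higher. The same 3 genes were also called with library sizes alone, with DESeq2 and with deep sums thinned to the shallow totals. They were not called with classes by total counts, with equal weight to every barcode or without the 3 deepest barcodes of each library. Of the 19 settings run, the main fit among them, Obp28a and Obp56h were called in 5 and Obp49a in 6. Obp56b, Obp56c and Obp56d, which lie next to each other in the annotation, had log2 fold changes of 1.22, 1.52 and 1.67 without replicate 1. In replicate 1 the list is almost wholly Obp28a, which supplied 2321 of its 2344 shallow counts.

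The share of odorant-binding protein genes stepped down with gene number from 200 genes upward in replicates 2 and 3. In replicate 2 it was 4.05%, 3.66%, 2.90% and 1.64% in barcodes with under 200 genes, in shallow barcodes, in those with 500 to under 1000 genes and in deep barcodes. In replicate 3 it was 4.81%, 4.90%, 2.77% and 1.65%. In replicate 1 it was 4.88%, 10.7%, 1.96% and 5.26% and had no single direction. No test was made of this order.

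**Figure D4:**
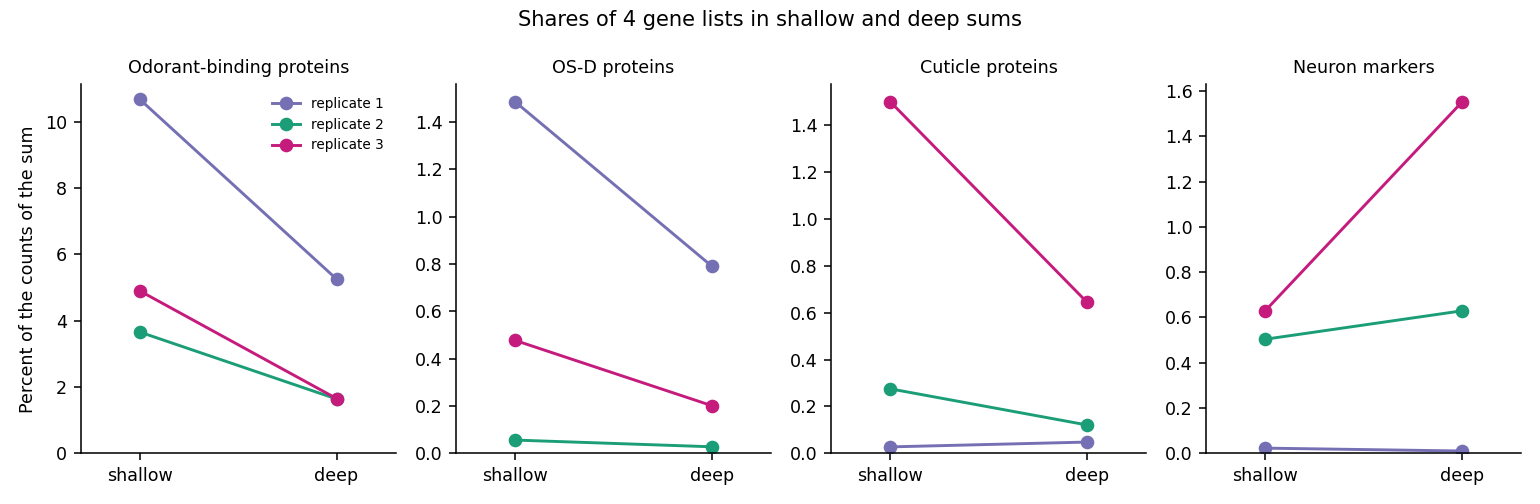
Percent of the counts of a sum held by odorant-binding protein, OS-D, cuticle and neuron marker genes, shallow on the left and deep on the right, 1 line per library. The odorant-binding and OS-D shares are higher in shallow sums in 3 of 3 libraries, while cuticle and neuron shares differ in direction between libraries.

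Of other secreted protein families, OS-D genes held a higher share of shallow than of deep counts in 3 of 3 libraries, and cuticle genes in 2 of 3. With edgeR on the full sums of all 3 libraries, 0 were called in either. The OS-D chemosensory proteins, a second family of small secreted carriers, held 1.49%, 0.0558% and 0.477% of shallow counts, against 0.791%, 0.0275% and 0.201% of deep counts. Most of this was PebIII (now EbpIII), with 14800, 372 and 4769 CPM in shallow sums and 7884, 245 and 2013 CPM in deep sums (log2 fold change 0.57, edgeR adjusted p = 1). PebIII was called with DESeq2 (adjusted p = 0.0420) and by edgeR with deep sums thinned to the shallow totals (0.00182). These were the only 2 of the 19 settings run that called it. Cuticle protein genes held 0.0273%, 0.275% and 1.501% of shallow counts, against 0.0479%, 0.121% and 0.645% of deep counts. They were higher in shallow sums of replicates 2 and 3, and 6 shallow counts stood behind replicate 1. Of 59 cuticle genes 11 were tested over all 3 libraries and 0 were called, with a median log2 fold change of 1.14. Without replicate 1, 10 were tested and 1 was called, Lcp65Ac, with a log2 fold change of 1.305 (edgeR adjusted p = 0.00496). Lcp65Ac, a larval cuticle protein gene, had 0, 1183 and 5307 CPM in shallow sums and 4.56, 494 and 2064 CPM in deep sums.

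Among the other genes called without replicate 1 and named after their values were seen, CG32726, CG34337 and CG11368 lie on the X chromosome and have no role assigned here. CG32726 had 228, 12700 and 9836 CPM in shallow sums, against 20.5, 5813 and 3257 CPM in deep sums, and its log2 fold change was 1.58 ± 0.59 (SE, edgeR adjusted p = 1) with all 3 libraries and 1.34 (adjusted p = 3.07e-04) without replicate 1. With relative log expression factors in place of TMM, CG32726 and CG34337 were called over all 3 libraries (edgeR adjusted p 6.80e-04 and 0.0168). CG11368 was not called there but was with DESeq2 (adjusted p = 0.00417). Over the 19 settings run, CG32726 was called in 6, CG34337 in 5 and CG11368 in 4. CG34337 had 273, 2766 and 6155 CPM in shallow sums and 86.7, 1197 and 2171 CPM in deep sums. CG11368 had 0, 14510 and 9328 CPM in shallow sums and 2.28, 7371 and 3283 CPM in deep sums. CG14456 on 3L had 1503, 19590 and 39320 CPM in shallow sums, against 4193, 8082 and 12320 CPM in deep sums. Replicate 1 ran opposite to the others for CG14456, and its log2 fold change was 0.38 with all 3 libraries and 1.46 without replicate 1.

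**Figure D5:**
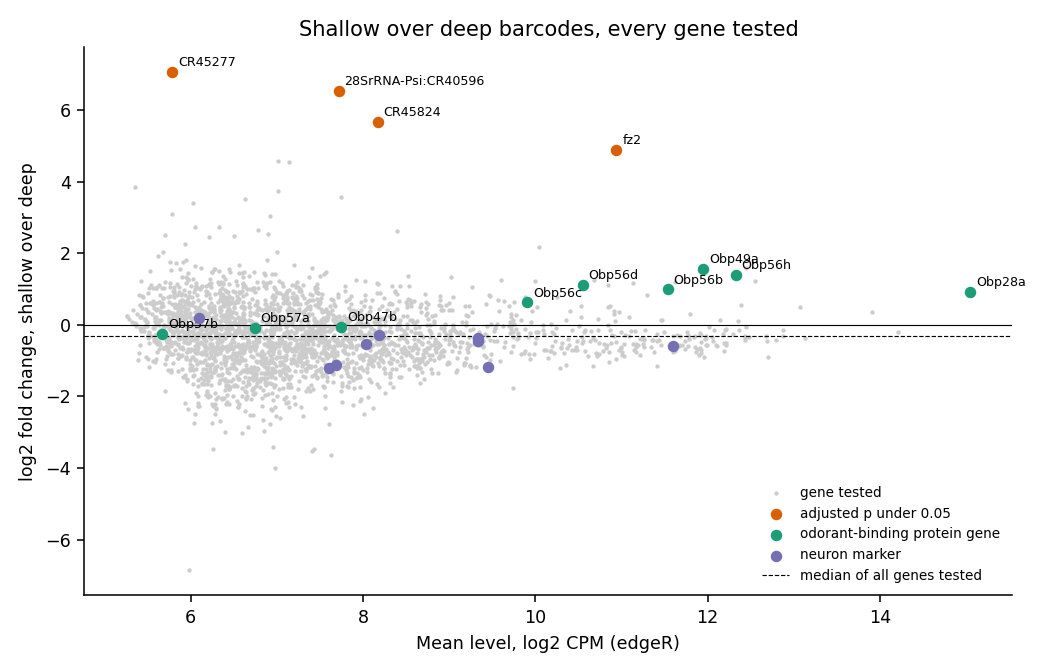
Log2 fold change of shallow over deep sums against the mean level from edgeR for all 2638 genes tested, grey; orange marks the 4 called genes, green the 9 odorant-binding protein genes tested and purple the 9 neuron markers tested. The called genes lie between 4.90 and 7.07, and the dashed line marks the median of all genes, -0.32.

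The 8 genes with the smallest unadjusted p among those higher in shallow sums of all 3 libraries were 28SrRNA-Psi:CR40596, CG6005, CG4281, Obp49a, dikar, CG32726, sog and disco-r, and apart from the first none passed with TMM scaling. With relative log expression factors CG6005 (edgeR adjusted p = 5.27e-05), Obp49a and CG32726 also passed. CG6005 was called in 7 of the 19 settings run. Genes higher in all 3 libraries were 5.34% of those tested. CG6005 had 91.1, 1316 and 3551 CPM in shallow sums, against 89.0, 106 and 655 CPM in deep sums, a log2 fold change of 2.18 ± 0.61 (SE, edgeR adjusted p = 0.136). Replicate 1 differed by less than counting error for CG6005, with a ratio of 1.02 (exact counting interval 0.120 to 3.95), and without replicate 1 the adjusted p was 3.55e-12. The transcription factor gene disco-r had 91.1, 173 and 190 CPM in shallow sums and 11.4, 37.1 and 20.5 CPM in deep sums. The BMP antagonist gene sog had 410, 106 and 20.0 CPM in shallow sums and 20.5, 7.42 and 15.4 CPM in deep sums.

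In the other direction, the 8 genes with the smallest p among those lower in all 3 libraries were CG16817, Art4, Dsp1, mnb, R, cic, Rpn5 and Aps, and none passed. Genes lower in all 3 libraries were 12.9% of those tested, by CPM and with no test. By this rule a gene with 0 shallow counts and any deep count is lower. The shallow sums held fewer counts than the deep sums in every library, so the shares of genes lower or higher can depend on depth. CG16817 (now p23, a co-chaperone of Hsp90) had 273, 226 and 549 CPM in shallow sums, against 1081, 460 and 1567 CPM in deep sums, a log2 fold change of -1.76 ± 0.57 (SE, edgeR adjusted p = 0.484). The shallow and deep values of CG16817 overlap across libraries but not within them. Rpn5, a proteasome lid subunit gene, had 45.6, 93.1 and 190 CPM in shallow sums and 509, 165 and 420 CPM in deep sums. The kinase gene mnb had 45.6, 13.3 and 190 CPM in shallow sums and 256, 42.7 and 584 CPM in deep sums. Art4, an arginine methyltransferase gene, had 0 counts in all 3 shallow sums and 93.5, 7.42 and 92.2 CPM in deep sums. The log2 fold changes of Art4, Dsp1, R, cic and Aps lay between -6.86 and -2.002, and their edgeR adjusted p between 0.830 and 1.

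Neuron markers held a lower share of shallow than of deep counts in replicates 2 and 3 and a higher one in replicate 1, and none passed the test. The 10 markers together held 0.0228%, 0.504% and 0.630% of shallow counts, against 0.0100%, 0.629% and 1.55% of deep counts. Replicate 1 held few of them in either class, 5 shallow and 44 deep counts, although the labels name neurons as the cells sought there as in the other libraries. In replicate 3, 1 barcode supplied 60.7% of the deep sum. Of 9 markers tested 0 were called and 1 was above 0, beside 890 of all 2638 genes. Their median log2 fold change was -0.54, beside -0.32 over all genes, and without replicate 1 it was -0.91, beside -0.14, again with 0 called. The Na/K pump subunit gene nrv3 had 91.1, 2646 and 2923 CPM in shallow sums and 18.2, 3163 and 8460 CPM in deep sums (log2 fold change -0.60, edgeR adjusted p = 1). The sodium channel gene para had 45.6, 731 and 369 CPM in shallow sums and 27.4, 1045 and 1623 CPM in deep sums. Atpalpha, the catalytic subunit of the same pump, was one of the 2 genes lower without replicate 1. It had 456, 2380 and 1227 CPM in shallow sums, against 164, 3143 and 4143 CPM in deep sums, and its log2 fold change without replicate 1 was -1.09 (edgeR adjusted p = 0.0446). The other was CG31221, at -1.05 (adjusted p = 0.0339).

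Chemosensory receptor genes were too sparse for most tests. All 97 Gr, Ir, Or and ppk genes in the files together held 0.0182%, 0.199% and 0.143% of shallow counts, against 0.0121%, 0.203% and 0.0814% of deep counts, and 9 of 97 could be tested, with 0 called. Orco, the olfactory co-receptor gene, was counted in replicate 2 alone, at 519 CPM in shallow and 597 CPM in deep barcodes. Its log2 fold change was -0.12 ± 1.25 (SE, edgeR adjusted p = 1). Ir25a, a co-receptor of the ionotropic receptors, had 0, 79.8 and 190 CPM in shallow sums and 0, 64.9 and 61.4 CPM in deep sums (log2 fold change 0.99 ± 1.19, adjusted p = 1). Ir76b was counted in the deep sum of replicate 2 alone, at 11.1 CPM, and was not tested. A shallow sum of replicate 1 with no count leaves up to 137 CPM unseen, so differences of these genes were not detectable there at this depth.

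None of the housekeeping lists had a called gene. Of the 83 ribosomal protein genes 81 were tested, and their median log2 fold change was -0.50, beside -0.32 over all genes. Of these 81, 1 was above 0, beside 890 of all 2638 genes. By CPM, 24 (29.6%) were lower in shallow sums of all 3 libraries, and 4 were higher in all 3. Of all genes 12.9% were lower in all 3, a share that can depend on depth. With relative log expression factors the median was -0.15, beside -0.04. The ribosomal protein share was lower in shallow than in deep sums of replicate 1 (29.7% against 38.3%) and, by less, of replicate 3 (20.6% against 21.1%). In replicate 2 it was 14.2% against 13.8%. Without replicate 1 the median was -0.03, above the -0.14 of all genes. The corresponding medians were -0.37 for 61 of 71 nuclear-encoded respiratory chain genes, -0.47 for 35 of 48 translation factors, -0.13 for 12 of 12 glycolysis genes and -0.72 for 7 of 8 cytoskeleton genes, each with 0 called. Mitochondrially encoded mRNAs held 2.12%, 2.96% and 1.08% of shallow counts and 1.25%, 3.26% and 1.60% of deep counts, so the direction in replicate 1 was opposite to the other libraries. The 2 mitochondrial ribosomal RNAs held 1.06%, 0.544% and 0.275% of shallow counts, against 0.531%, 0.451% and 0.266% of deep counts. Heat shock genes held 0.0592%, 0.210% and 0.0479% of shallow counts, against 0.215%, 0.241% and 0.0517% of deep counts, lower in shallow sums of 3 of 3 libraries. With 9 of 20 tested, 0 heat shock genes were called, and 1 was lower at an unadjusted p under 0.05. The immediate early and stress genes, Jra and kay among them, held 0.0546%, 0.0678% and 0.0130% of shallow and 0.0139%, 0.0507% and 0.0323% of deep counts, with 0 of 3 tested called. Glutathione S-transferase, cytochrome P450 and glucuronosyltransferase genes (30 of 108 tested) had a median log2 fold change of 0.08, and channels of excitability (6 of 11 tested) one of -1.05, with 0 called in either list. Of 777 non-coding RNA genes 25 were tested and 2 called, which are CR45824 and CR45277.

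Markers of other cell types gave small shares in both classes, and the pooled shares of epidermis, sensillum support, trachea and muscle markers were higher in shallow sums of 3 of 3 libraries. Single members differed. Of 4 epidermis markers tested, 1 had a log2 fold change above 0 and 0 were higher in all 3 libraries. Their median was -0.79, beside -0.32 over all genes. Of 2 trachea markers tested, 1 was above 0, with a median of -0.13. Of sensillum support and muscle markers 1 each was tested. The shallow share was 1.18-, 1.58- and 1.28-fold the deep share for epidermis markers in replicates 1, 2 and 3, and 4.99-, 1.13- and 4.29-fold for sensillum support markers, which rest on 1, 11 and 11 shallow and 4, 70 and 5 deep counts. It was 2.25-, 2.39- and 5.84-fold for trachea markers, with 27, 1 and 3 shallow and 240, 3 and 1 deep counts, and 2.09-, 3.46- and 2.92-fold for muscle markers. The 8 glia markers held between 0.0738% and 0.290% of shallow counts and between 0.0287% and 0.390% of deep counts, and the 6 epidermis markers between 0.0266% and 0.237% of shallow and between 0.0169% and 0.2005% of deep counts. Muscle markers held 0.0186% to 0.0501% of shallow counts, from 11 to 21 counts, and 0.00538% to 0.0240% of deep counts. The titin-like muscle gene sls had 501, 39.9 and 49.9 CPM in shallow sums and 121, 9.28 and 15.4 CPM in deep sums (log2 fold change 1.48, edgeR adjusted p = 1). It made up the muscle share of the shallow sum of replicate 1, while other muscle markers held most of that share in replicates 2 and 3. Trachea markers reached 0.123% of shallow and 0.0548% of deep counts in replicate 1 and at most 0.00299% in the other sums, and the 4 sensillum support markers at most 0.0146% in any sum. Hemocyte markers held at most 0.0137% of any sum. Fat body markers had 0 counts in the shallow sums and 2 counts in each of 2 deep sums, and the salivary gland marker had 1 count, in a deep sum. Over all 6 sums, 1 of 8 hemocyte and 1 of 4 fat body markers had 0 counts. None of these lists had a called gene. The part of any of these cells in the differences of fz2 and of the odorant-binding protein genes was not tested.

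Barcodes that entered neither class were compared in the same way, those with under 200 genes over those with 500 to under 1000 genes. Of 901 genes tested, 0 were called in either direction (0%) by edgeR and 0 by DESeq2, and at an unadjusted p under 0.05 edgeR gave 14 higher and 8 lower, DESeq2 19 and 6. The log2 fold changes were -0.29 for fz2, 0.17 for 28SrRNA-Psi:CR40596 and -0.61 for CR45824, with an adjusted p of 0.985 each. All 6 odorant-binding protein genes tested had a positive log2 fold change there, with a median of 0.92 beside -0.13 over all genes tested, and none passed. Of the 24 genes higher without replicate 1 in the first comparison, 22 were tested here and 19 were above 0, with a median of 0.38. Those below 0 were fz2, CR45824 and P58IPK, the last at -1.21 (edgeR unadjusted p = 0.0287, adjusted p = 0.985). Of the 896 genes tested in both comparisons, 395 were above 0 here. These barcodes come from the same libraries and are not independent libraries. Without replicate 1, 3 genes were higher with an adjusted p of 0.00569, Obp56d at 1.12 ± 0.25 (SE), Obp56h at 0.84 ± 0.19 and CG14456 at 0.73 ± 0.17, and Uch, a ubiquitin hydrolase gene, was lower at -1.40 ± 0.38 (edgeR adjusted p = 0.0464).

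The spread between single barcodes could be described for abundant genes alone. With barcodes thinned to 250 counts, the variance over barcodes divided by the mean was taken for genes with at least 2000 CPM in both classes, where counting alone gives 1. Its median over genes was 1.40, 1.09 and 1.14 in shallow barcodes and 1.13, 1.12 and 0.995 in deep barcodes of replicates 1, 2 and 3. Genes with a value above 2 numbered 17 of 95, 2 of 65 and 0 of 80 in shallow barcodes, and 9, 3 and 3 in deep barcodes. At 250 counts a gene of 2000 CPM averages under 1 count per barcode, so these values show little about how alike the barcodes are. The 4 called genes lie below 2000 CPM in the deep sums and are not among these genes.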

How the data were processed

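The tables the authors deposited give raw counts, whole numbers for each gene symbol (rows) and barcode (columns, per the file headers). The submitters' processing notes name STAR 2.7.0 and Seurat 3.1.2 with no role. The genome build, the counter, any collapsing of copies to molecules and any correction of barcodes are not given in the sources used here, so values are called counts and intervals cover counting error only. Of 10457 symbols, 8165 are in current use per the gene name table and 2159 more matched a RefSeq synonym (assembly Release 6 plus ISO1 MT). No coordinates are given.

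Counts were summed per library and class (shallow, deep). The 6 sums were fitted in edgeR 4.0.16 (R 4.3.3; filterByExpr, TMM factors, glmQLFit, glmQLFTest) with the library as a block, because a library's shallow and deep barcodes share its cell suspension, and p-values were adjusted over all genes tested. The estimated prior degrees of freedom were infinite, so each gene took a shared fitted spread, which may vary with mean level, and none of its own. DESeq2 1.42.0 and limma 3.58.1 were alternatives, and scipy 1.17.1 gave exact intervals. The steps were tested on simulated data. The members and the 25 gene lists were chosen with earlier results of these data known. Genes named were the 8 in each direction with the smallest p among those moving the same way in all 3 libraries (the rule when fewer than 10 pass), up to 4 of the highest members of each list, and Orco, Ir25a and Ir76b. Other genes were named after their values were seen.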

Additional observations from a re-analysis of the deposited data

How the results depend on the processing

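The number of genes higher in shallow barcodes, 4, became 15 with relative log expression factors and 15 with library sizes alone, 10 with DESeq2, 18 with deep sums thinned to the shallow totals, 2 with classes by total counts, and 0 with a deep class of at least 500 genes or with equal weight to every barcode (limma). Without the replicate block, which undoes the pairing of the 2 sums of a library, it was 0. Leaving out 1 replicate gave 0 to 24 higher and 0 to 2 lower genes, and between the barcodes in neither class 0 to 3 higher and 0 to 1 lower. The scaling moved the median log2 fold change of all genes, which was -0.32 with TMM, -0.04 with relative log expression factors and -0.10 with library sizes alone, and changes are to be read against it. The causes of these moves were not tested.

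Orco turned to a log2 fold change of 1.08 with DESeq2, 0.0108 without shallow barcodes near a deep one and 0.30 with thinned deep sums. The odorant-binding protein difference was 1.73 percentage points with classes by total counts, and 2.63 to 4.33 when 1 replicate was left out. With all sums thinned to the smallest total, the mean correlation between libraries was 0.0562 for deep sums, 0.0698 for shallow and deep sums and 0.102 for shallow sums. For shallow sums of different libraries it was 0.309 with at least 30 counts in a pair and 0.0976 with log2(CPM + 1). Within 3 edits, 0%, 3.75% and 3.09% of shallow barcodes lay near a deep barcode of their library, and within a Hamming distance of 3, 0%, 1.88% and 2.06%. The shallow sum of replicate 1, 21956 counts from 24 barcodes, limits what that library can show.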
